A study of Homo sapiens with 35 samples.

Results

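The genes described here were 10 members of the BCL2 family, chosen by symbol: the survival genes BCL2, BCL2L1, MCL1 and BCL2A1, the effector genes BAX and BAK1, and the BH3-only death genes BCL2L11, BBC3, PMAIP1 and BID. Each symbol matched 1 of the 62696 rows of the count table, and all 10 passed the filter on low counts that left 16879 genes for testing. They were measured in U-87 MG, an established human glioma cell line that is grown in culture and that the submitters did not authenticate by profiling. RNA-seq covered 4 groups of 3 libraries: control cells left untreated, control cells given TWEAK, ETS1 knockdown (KD) cells given TWEAK and NFKB2 KD cells given TWEAK. The cytokine was used at 10 ng/ml for 48 h. ChIP-seq had 2 replicates a condition. Peak lists of p52 covered untreated control, TWEAK control, and TWEAK-treated ETS1 KD cells made with guide 1 or guide 2. Those of ETS1 covered untreated and TWEAK control, and those of RNA Pol II the same 4 groups as the RNA. The KD cells carried a lentiviral CRISPR construct, and the study names CRISPR control cells as the comparison for p52 ChIP-seq of ETS1 KD cells. No untreated KD cells were measured, so a KD could be compared only under TWEAK. The labels name no guide for the KD cells of the RNA-seq and RNA Pol II libraries. The study's methods call the RNA-seq replicates biological. Neither they nor the labels say how the cultures were separated, so p-values measure the spread between these libraries.

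BCL2 family proteins set whether the outer mitochondrial membrane stays intact. BAX and BAK1 form the pores that release cytochrome c, the survival proteins hold them in check, and BH3-only proteins bind the survival proteins or activate the effectors directly. TWEAK is a TNF family ligand that, through NIK, drives processing of the NFKB2 product to p52, an NF-κB subunit that lacks an activation domain of its own, and NF-κB is known in many cell types for inducing survival genes of this family.

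Read totals ran from 28384201 to 40192606 per library. ETS1 itself, whose group means were 77.5 CPM (counts scaled to a common library size after TMM normalisation) in TWEAK control and 33.0 in ETS1 KD cells, fell by 1.23 on the log2 scale (SE 0.15, edgeR adjusted p = 0.00112). NFKB2 fell by 1.67 in NFKB2 KD cells (SE 0.18, adjusted p = 0.00339). Every KD library lay below every TWEAK control library for its target. Against untreated control the KDs differed. NFKB2 was at 75.6 to 105 CPM in NFKB2 KD libraries, above the 49.6 to 66.6 CPM of untreated control. ETS1 was at 28.2 to 37.8 CPM in ETS1 KD libraries, below the 41.3 to 45.1 CPM of untreated control. The glioma line markers VIM, CD44, NES and FN1 were abundant (at least 76.6 CPM in every library). The astrocyte markers GFAP and S100B stayed at or below 0.365 CPM, and CDKN2A and CDKN2B, which U-87 MG has lost, had no read. Of the markers of other cells, the 4 leukocyte genes summed to at most 0.0922 CPM, the 3 epithelial genes to at most 2.12 CPM and the 3 endothelial genes to at most 5.31 CPM, with KRT5 at 0. Libraries differed in how their counts ran with the GC content of genes: the Spearman correlation of a library's deviation with GC ran from -0.385 to 0.517, and was highest in NFKB2 KD replicate 2 (0.517) and untreated control replicate 3 (0.451). For that reason the value after a correction for GC content and length is given beside each gene of the 10 whose call it changed.

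None of the 10 genes passed the test (edgeR, adjusted p below 0.05 over all genes) for TWEAK against untreated control cells, where 3.08% of all tested genes did. Unadjusted p was under 0.05 for 3 of the 10, MCL1, BCL2L11 and PMAIP1, against 14.7% of all genes. DESeq2 called 1 member, MCL1, beside 431 genes higher and 509 lower of 16879. For ETS1 KD against control cells under TWEAK the count was also 0, with 1.39% of all genes called. In that comparison 3 members, MCL1, BBC3 and PMAIP1, had an unadjusted p under 0.05, against 12% of genes. DESeq2 called 2 members, BBC3 and PMAIP1, beside 158 genes higher and 376 lower of 16879. For NFKB2 KD against control the count was 0 with 0.0296% of genes called, and 2 members (BCL2A1 and PMAIP1) had an unadjusted p under 0.05, against 3.91% of genes. DESeq2 called 0 members there, beside 10 genes higher and 26 lower of 16879. Between the KDs, BBC3 was the 1 member called, lower in ETS1 KD than in NFKB2 KD cells, where 1.94% of all genes were called and 1.4% were called lower. A further comparison, of TWEAK-treated ETS1 KD cells with untreated control cells, was added after the values had been seen. It called 1 member higher (MCL1, with 6.22% of all genes called higher) and 1 lower (BBC3, with 7.61% called lower), beside 13.8% in either direction. In it the treatment and the genotype cannot be told apart. These comparisons share libraries, so their values for a gene are not independent of each other. The median log2 fold change of the 10 genes was 0.06 with TWEAK, 0.02 with ETS1 KD and 0.02 with NFKB2 KD, beside 0.02, 0.01 and -0.02 over all genes. The groups of 3 libraries did not overlap for 3 members with TWEAK, 3 with ETS1 KD and 1 with NFKB2 KD, against 22.5%, 20.3% and 6.87% of all genes.

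**Figure D1:**
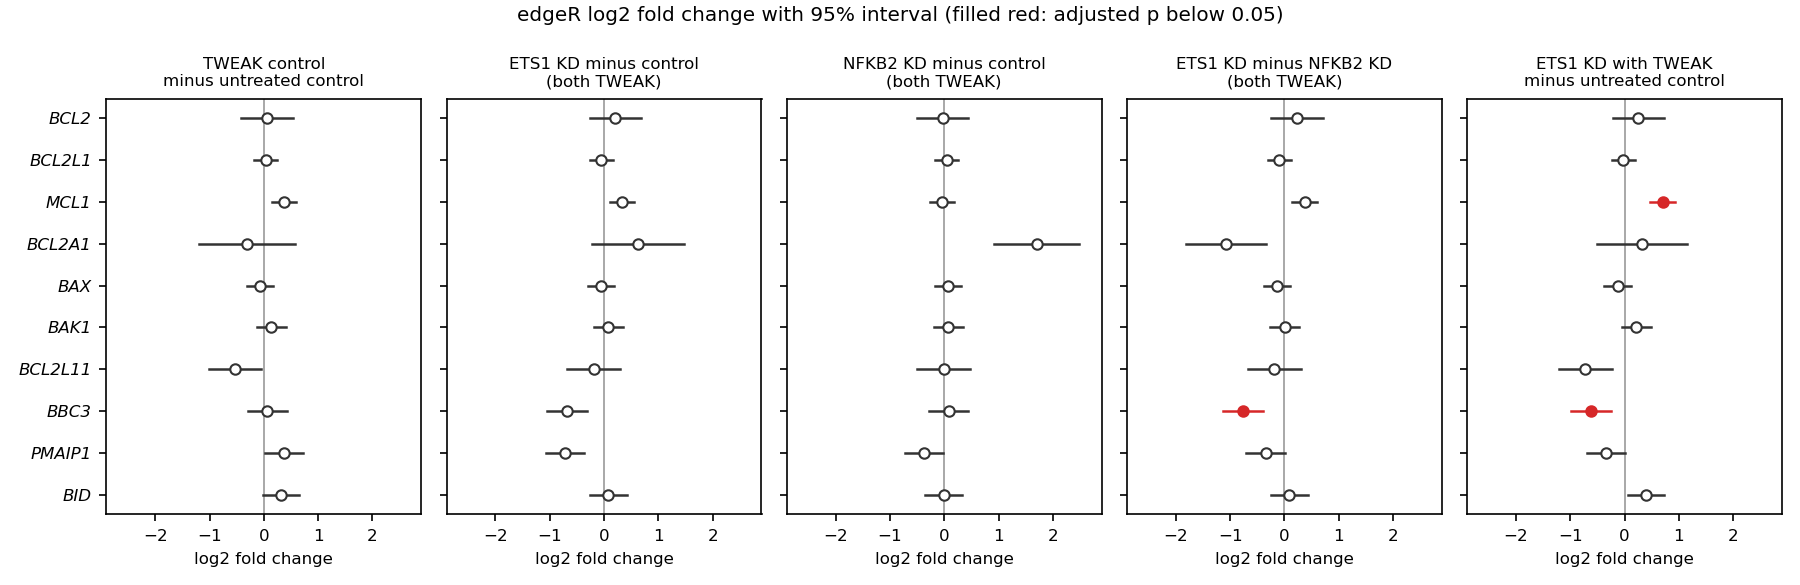
Log2 fold change (x axis) of each gene (y axis) in 5 comparisons, from 1 edgeR fit of all 12 libraries, with the 95% interval as a bar and filled red points for adjusted p below 0.05. BBC3 is filled in the comparison of the KDs at -0.77, and MCL1 at 0.70 and BBC3 at -0.62 in the comparison of ETS1 KD cells with untreated cells.

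Corrected for exon length, the levels averaged over all 12 libraries ran from 56.0 CPM per kb for BCL2L1, through 52.5 for MCL1, 29.5 for BAX, 11.1 for PMAIP1, 8.21 for BID, 6.84 for BAK1 and 3.19 for BBC3, to 0.716 for BCL2L11, 0.598 for BCL2 and 0.419 for BCL2A1. BCL2L1 and MCL1 overlapped across libraries (53.1 to 65.2 and 39.97 to 73.0 CPM per kb), as did neighbours among PMAIP1, BID and BAK1 and among the lowest 3 genes. BAX (26.1 to 32.8) and BBC3 (1.87 to 4.14) overlapped no neighbour in this order. The order of the first 2 turned between groups: MCL1 averaged 40.5 CPM per kb in untreated and 66.0 in ETS1 KD cells, where BCL2L1 averaged 55.2 and 54.4. That turn depends on the exon length used, which is the union of all annotated exons. In CPM, MCL1 averaged above BCL2L1 in every group (252 against 232 in untreated control). Among the survival genes, BCL2L1 and MCL1 had the highest levels per length and BCL2 and BCL2A1 the lowest.

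MCL1 (ENSG00000143384, hg38 chr1:150560895-150579738, minus strand) encodes a short-lived survival protein that binds BH3-only proteins and BAK1. It was at 249, 255 and 253 CPM in untreated control replicates 1 to 3 and at 319, 310 and 350 CPM in TWEAK control. It was at 362, 415 and 455 CPM in ETS1 KD, and at 342, 299 and 308 CPM in NFKB2 KD libraries. Untreated libraries were the lowest and ETS1 KD libraries the highest, and neither overlapped TWEAK control cells, whereas NFKB2 KD and TWEAK control libraries overlapped. The log2 fold change was 0.37 with TWEAK (SE 0.11, edgeR adjusted p = 0.0849) and 0.33 with ETS1 KD (SE 0.11, adjusted p = 0.184), both short of the threshold. For ETS1 KD with TWEAK against untreated cells it was 0.70 (SE 0.11, adjusted p = 0.00106), a 1.63-fold rise seen in 3 of 3 libraries. The TWEAK difference passed the test with DESeq2 (adjusted p = 0.0263) and after the GC and length correction (0.0267), and did not with any library left out (0.14 to 0.303) or with no filter on low counts (0.394). The ETS1 KD difference passed with the correction and the replicate block together (0.0417). Between the KDs MCL1 was higher in ETS1 KD cells by 0.38 (adjusted p = 0.0955), which passed only with DESeq2 (0.0301) and after the GC and length correction, without the replicate block (0.35, 0.0394) or with it (0.0267). In these bulk samples, a change in RNA per cell and a change in the share of cells that express a gene cannot be told apart. Its exons overlap exons of ADAMTSL4 and ADAMTSL4-AS1. Exons of BCL2L1, BCL2L11, BAK1 and BBC3 likewise overlap ABALON, MIR4435-2HG, GGNBP1, and MIR3190 with MIR3191. The strand setting of the read counting is not given in the sources used here, so reads of these pairs cannot be told apart.

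BCL2L1 (ENSG00000171552, chr20:31664452-31723989, minus strand), the source of the survival protein BCL-XL, passed the test in no comparison. Group means were 232 ± 8.28, 237 ± 4.43, 228 ± 4.80 and 244 ± 26.1 CPM (SD, n = 3) in untreated control, TWEAK control, ETS1 KD and NFKB2 KD cells. The wide spread in NFKB2 KD cells came from replicate 2, at 274 CPM against 233 and 226 CPM in its group mates. The 95% interval of the TWEAK difference was -0.18 to 0.24 on the log2 scale, and that of the ETS1 KD difference was -0.26 to 0.16, which bounds the change these libraries allow.

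BCL2 (ENSG00000171791, chr18:63123346-63320128, minus strand), the founding survival gene of the family, was low in every group, at 5.39 to 9.92 CPM over the 12 libraries. Its groups overlapped in every comparison, and its largest difference was 0.20 on the log2 scale with ETS1 KD (95% interval -0.27 to 0.68) among the comparisons that change 1 factor. BCL2A1 (ENSG00000140379, chr15:79960892-79971196, minus strand), which encodes the survival protein BFL-1 and is a known NF-κB target in leukocytes, was close to undetected. Its read counts were 10, 10 and 7 in untreated control, 9, 6 and 9 in TWEAK control, 9, 13 and 15 in ETS1 KD and 27, 35 and 19 in NFKB2 KD libraries. NFKB2 KD libraries were thus above all others, with a log2 fold change of 1.71 against TWEAK control (95% interval 0.92 to 2.49, unadjusted p = 0.000444), which did not pass the adjustment over all genes (edgeR adjusted p = 0.319). At 6 to 35 reads per library the depth limits what can be said of this gene. BCL2A1 had the widest range of group means among the 10 genes, 1.49 on the log2 CPM scale. Among the genes whose log2 CPM followed it most closely over the 12 libraries were MAGEA1 (Pearson r = 0.809), KICS2 (0.795), THSD7B (0.791) and MAGEC2 (0.762), given as a description.

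No difference in an effector gene passed the test in any comparison. BAX (ENSG00000087088, chr19:48954815-48961798, plus strand), which encodes a cytosolic protein that moves to mitochondria to form pores, stayed between 67.4 and 84.9 CPM in all libraries. Its 95% interval was -0.31 to 0.17 with TWEAK, -0.30 to 0.18 with ETS1 KD and -0.17 to 0.31 with NFKB2 KD on the log2 scale. BAK1 (ENSG00000030110, chr6:33572547-33580293, minus strand), whose product sits in the mitochondrial membrane already, stayed between 13.0 and 18.1 CPM, with an interval of -0.13 to 0.40 with TWEAK and -0.18 to 0.34 with ETS1 KD. Groups of both genes overlapped in all 5 comparisons.

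BBC3 (ENSG00000105327, chr19:47220822-47232766, minus strand) encodes PUMA, a BH3-only protein that binds all the survival proteins. It was at 8.51, 10.8 and 12.8 CPM in untreated control and 11.01, 11.7 and 10.8 CPM in TWEAK control. It was at 8.18, 5.95 and 6.78 CPM in ETS1 KD and 10.7, 13.2 and 11.6 CPM in NFKB2 KD libraries. Every ETS1 KD library lay below every library of the other groups. The difference was -0.77 on the log2 scale against NFKB2 KD (SE 0.17, edgeR adjusted p = 0.0382), -0.68 against TWEAK control (SE 0.17, adjusted p = 0.0768) and -0.62 against untreated control (SE 0.17, adjusted p = 0.0285). The ETS1 KD difference from its own TWEAK control did not pass the edgeR test. It passed with DESeq2 (adjusted p = 0.0103), with no filter on low counts (0.0383) and after the GC and length correction (0.00639), and did not with the replicate block (0.0993) or with any library left out (0.086 to 0.289). BBC3 is rich in GC (69.7% in its longest transcript). The call between the KDs was lost without ETS1 KD replicate 2 or 3 or NFKB2 KD replicate 2 or 3 (log2 fold change -0.93 to -0.68 over the libraries left out in turn, adjusted p 0.0319 to 0.167), with only the 2 groups fitted (0.0991) and with the replicate block (0.054). TWEAK alone left BBC3 within its spread, at 0.07 (95% interval -0.29 to 0.42). The call against untreated control was lost without untreated replicate 2 or 3 or ETS1 KD replicate 2 or 3 (adjusted p 0.0182 to 0.12 over the libraries left out in turn), and with only the 2 groups fitted (0.0642).

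PMAIP1 (ENSG00000141682, chr18:59899996-59904305, plus strand) encodes NOXA, a BH3-only protein that binds MCL1 most tightly. It was at 26.6, 24.5 and 20.4 CPM in untreated control and 36.1, 27.3 and 29.1 CPM in TWEAK control. It was at 18.8, 18.3 and 19.1 CPM in ETS1 KD and 28.3, 18.7 and 24.4 CPM in NFKB2 KD libraries. TWEAK control libraries were all above the untreated ones and all above the ETS1 KD ones, while NFKB2 KD libraries overlapped TWEAK control. The log2 fold change was 0.37 with TWEAK (SE 0.16, adjusted p = 0.308), -0.72 with ETS1 KD (SE 0.16, adjusted p = 0.0517) and -0.37 with NFKB2 KD (SE 0.16, adjusted p = 1). The ETS1 KD difference missed the threshold, and missed it also with RLE size factors (0.0513) and with each library left out in turn (0.0671 to 0.194). It passed with DESeq2 (adjusted p = 0.00386), after the GC and length correction (0.00101), with no filter on low counts (0.00596), with library totals alone (0.0316), with the replicate block (0.0312) and with only the 2 groups fitted (0.0234). After the GC and length correction PMAIP1 also passed between the KDs (-0.43, adjusted p = 0.0214, against -0.35 and 0.33 without it) and for ETS1 KD with TWEAK against untreated cells (-0.39, adjusted p = 0.0108, against -0.35 and 0.191). Its TWEAK difference passed with the correction and the replicate block together (0.0321). PMAIP1 has few GC bases (36.7%), and its lowest untreated and NFKB2 KD values were those of the libraries that favoured GC most, whose part in the result was not tested.

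BCL2L11 (ENSG00000153094, chr2:111119378-111168444, plus strand) encodes BIM, a BH3-only activator. It was at 4.69, 6.09 and 8.59 CPM in untreated control against 3.62, 4.68 and 5.11 CPM in TWEAK control, groups that overlapped, and at 4.37, 3.71 and 3.69 CPM in ETS1 KD and 3.65, 4.60 and 5.14 CPM in NFKB2 KD libraries. Its log2 fold change was -0.53 with TWEAK (SE 0.22, adjusted p = 0.284) and -0.72 for ETS1 KD with TWEAK against untreated cells (SE 0.22, adjusted p = 0.0504). The latter passed after the GC and length correction (-0.70, adjusted p = 0.0261) and with DESeq2 (0.0195), and did not with only the 2 groups fitted (0.0706). With each library left out in turn it ran from 0.0259, without untreated replicate 1, to 0.187. BID (ENSG00000015475, chr22:17734138-17774770, minus strand), which links death receptors to mitochondria once caspase 8 cleaves its product, was at 30.3, 31.2 and 29.3 CPM in untreated control and 39.2, 37.5 and 36.4 CPM in TWEAK control libraries. These groups did not overlap, but the log2 fold change of 0.31 (SE 0.15) had an adjusted p of 0.385. ETS1 KD libraries were at 38.1, 43.5 and 37.9 CPM, and NFKB2 KD libraries spread from 29.6 to 48.3 CPM, with replicate 2 the highest. For ETS1 KD with TWEAK against untreated cells BID differed by 0.40 (adjusted p = 0.115), which passed with the GC and length correction and the replicate block together (0.0189) and with only the 2 groups fitted (0.0397).

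**Figure D2:**
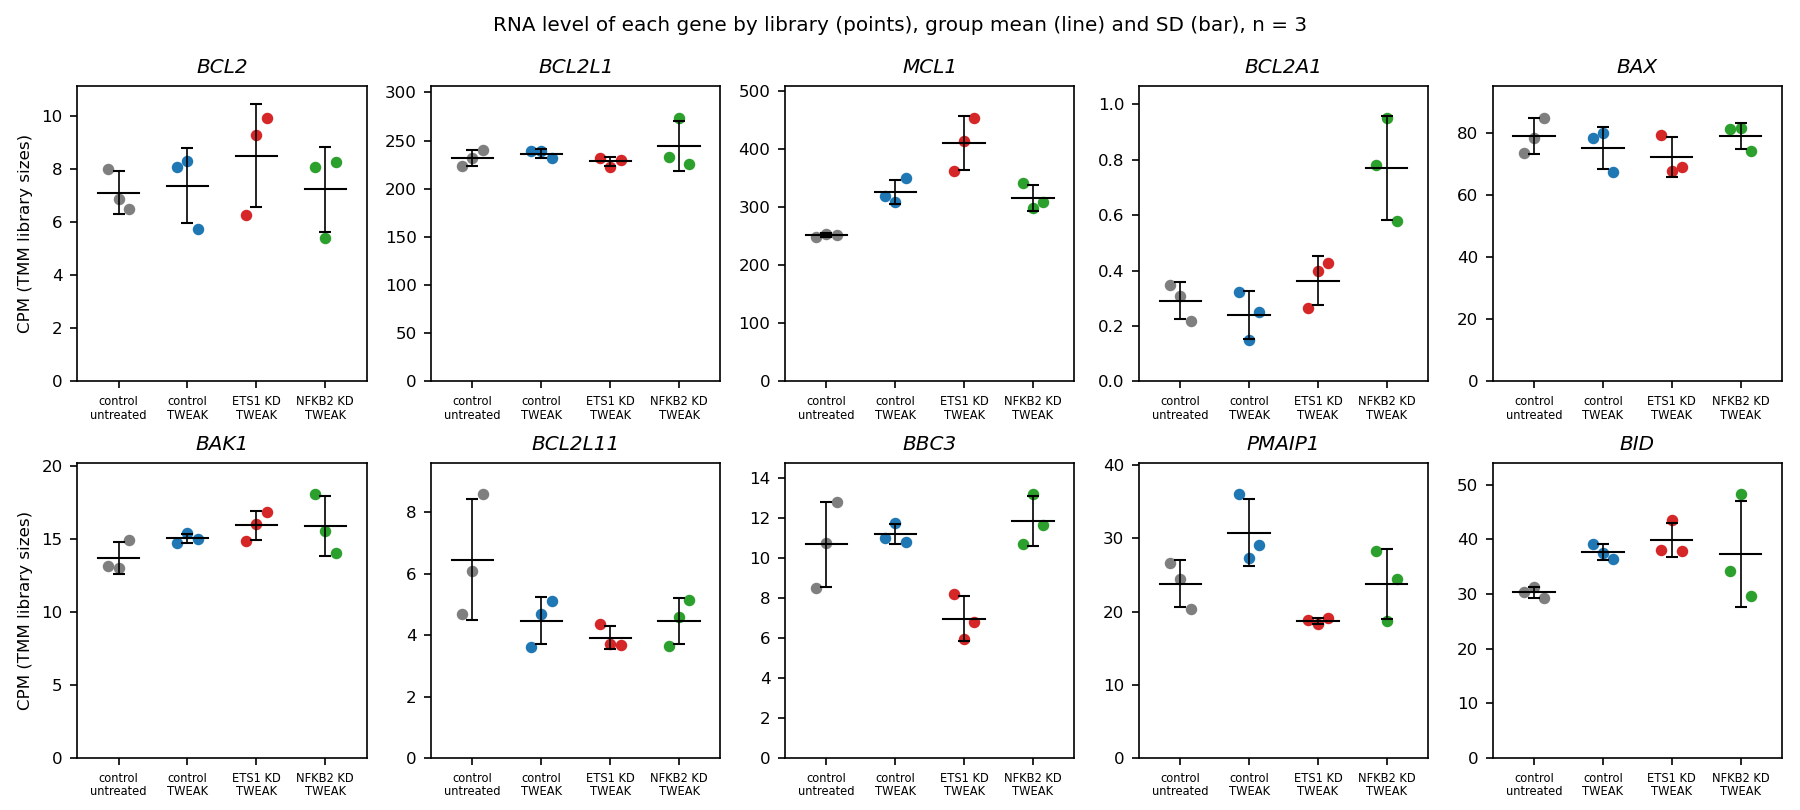
RNA level in CPM (y axis, from 0) of each of the 10 genes in the 4 groups (x axis), with 3 libraries a group as points, the mean as a line and the SD as a bar. MCL1 is lowest in untreated and highest in ETS1 KD cells, BBC3 is lowest in the 3 ETS1 KD libraries (5.95 to 8.18 CPM), and BCL2L1, BAX and BAK1 stay level.

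No p52 peak of untreated cells lay within 15 kb of a start site of any of the 10 genes in either replicate, beside 0.302% of the tested genes with one in either and 0.083% in both, in lists of 714 and 452 peaks. After TWEAK, 5 of the 10 genes, BCL2L1, MCL1, BBC3, PMAIP1 and BID, had a p52 peak within 15 kb in both control replicates, beside 11.7% of the tested genes. Lists differed in length (3579 and 11761 peaks in the TWEAK control replicates), so presence depends on the list. Held to the strongest 452 peaks, the length of the shorter untreated list, the count was 1 of 10, BBC3, in TWEAK control (beside 1.64% of the tested genes), with guide 1 (1.6%) and with guide 2 (1.8%). In TWEAK-treated ETS1 KD cells the count was 3 of 10 with guide 1 (BBC3, PMAIP1 and BID, beside 5.10% of genes, in lists of 1387 and 3897 peaks) and 5 of 10 with guide 2 (the same genes as in control cells, beside 12%). The 2 genes missing with guide 1, BCL2L1 and MCL1, were missing in its replicate 1 only, the shortest of the TWEAK lists. BCL2, BCL2A1, BAX and BAK1 had no p52 peak within 15 kb in any of the 8 libraries, and BCL2L11 had 1, in TWEAK control replicate 2, at rank 11322 of 11761.

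Of the 10 genes, BBC3 had the strongest p52 peak in TWEAK control cells. Its summit lay 178 and 180 bases upstream of the MANE start (the start of the reference transcript) in the TWEAK control replicates, inside an intron of the annotated gene, with a fold enrichment over input of 36.8 and 88.5 and ranks of 105 of 3579 and 63 of 11761. With ETS1 KD guide 1 the fold enrichment was 21.0 and 53.7 (ranks 175 of 1387 and 102 of 3897), and with guide 2 it was 24.8 and 20.1 (ranks 142 of 4252 and 219 of 3938). The peak was therefore present in all 6 TWEAK libraries, whether or not ETS1 had been knocked down, and in neither untreated library. A weaker p52 peak lay in an intron downstream of the start in the same 6 libraries (3519 and 3498 bases in TWEAK control, fold enrichment 11.2 and 16.4). The reference sequence around these summits of TWEAK control replicate 2 is shown because both windows hold a κB consensus match. It is given on the gene's strand, 5′ to 3′, with matches in capitals, and the windows overlap no annotated exon.
BBC3 upstream summit, chr19:47231319-47231439 (hg38, minus strand): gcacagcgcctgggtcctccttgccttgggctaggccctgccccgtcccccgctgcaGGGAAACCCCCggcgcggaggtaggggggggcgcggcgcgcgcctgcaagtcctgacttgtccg
BBC3 intron summit, chr19:47227641-47227761 (hg38, minus strand): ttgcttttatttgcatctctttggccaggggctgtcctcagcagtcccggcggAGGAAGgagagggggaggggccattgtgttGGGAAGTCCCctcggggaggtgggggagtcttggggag
The upstream window has 2 overlapping κB matches, merged in the capitals, whose first bases lie 3 and 2 bases before the summit. The intron window has 1 κB match 23 bases after the summit and an AGGAAG, the core of an ETS site, 7 bases before it. A κB match, searched on both strands, was in 62.4% and 65.6% of the 300-base windows around all p52 summits of the TWEAK control lists, and an AGGAAG on either strand in 33.3% and 31.9%.

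PMAIP1 had its p52 summit 178 and 147 bases upstream of its start in TWEAK control (fold enrichment 9.79 and 27.8, ranks 1267 of 3579 and 688 of 11761). In the ETS1 KD libraries it lay 157 to 195 bases upstream, with a fold enrichment of 7.29 and 15.2 with guide 1 and 17.4 and 10.2 with guide 2. BCL2L1 had its summit 716 and 718 bases upstream of the MANE start but in an intron of the annotated gene, at a fold enrichment of only 3.69 in TWEAK control replicate 1 (rank 3374 of 3579) and 13.1 in replicate 2. MCL1 had its strongest summit in an exon, 40 and 45 bases downstream of the start (fold enrichment 8.41 and 15.01). BID had its summit 7137 and 7166 bases upstream of the MANE start, beyond the annotated gene (fold enrichment 7.22 and 24.4), and no other gene had a nearer MANE start. None of these 4 windows of 300 bases held a κB consensus match in either TWEAK control replicate, and those at PMAIP1, BCL2L1 and MCL1 held an AGGAAG, in capitals in the sequences shown. The PMAIP1 and BCL2L1 sequences include the replicate 2 summit, and the MCL1 stretch lies upstream of its summit.
PMAIP1 upstream summit, chr18:59899739-59899909 (hg38, plus strand): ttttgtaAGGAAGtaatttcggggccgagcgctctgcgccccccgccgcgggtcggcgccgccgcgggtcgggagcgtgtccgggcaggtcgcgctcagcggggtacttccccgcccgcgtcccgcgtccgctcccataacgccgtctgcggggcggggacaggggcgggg
BCL2L1 intron summit, chr20:31723536-31723636 (hg38, minus strand): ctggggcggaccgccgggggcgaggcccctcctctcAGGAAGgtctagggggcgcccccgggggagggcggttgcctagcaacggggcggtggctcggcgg
MCL1 exon, chr1:150579579-150579608 (hg38, minus strand): ttctcacttccgCTTCCTtccagtaaggag
The MCL1 match is on the opposite strand and reads CTTCCT here. CTTCCGG, the longer ETS consensus, and TGANTCA, the AP-1 site, were in none of these p52 windows of TWEAK control cells, and were in 2.94% and 29.1% of all windows of the replicate 2 list. Absence of a match says only that these letters are not in the window.

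ETS1 peaks were present in both TWEAK control replicates at 2 of the 10 genes, BCL2 and BCL2L11, beside 12.2% of the tested genes, and in both untreated replicates at none, beside 8.64%. Untreated replicate 2 had the shortest ETS1 list (2066 peaks) and no peak at any member, whereas replicate 1 had peaks at BCL2, BCL2L11 and MCL1. At BCL2 the ETS1 summit lay 29 bases downstream of the MANE start in untreated replicate 1 and 74 and 48 bases downstream in the TWEAK replicates, all in an exon, with a fold enrichment of 4.53, 4.74 and 3.98. At BCL2L11 the summits of TWEAK replicate 1 (3012 bases upstream of the MANE start) and replicate 2 (542 bases upstream and 682 bases downstream) differed in place, and untreated replicate 1 had summits 3027 and 336 bases upstream and 723 bases downstream. At MCL1 the ETS1 peak was in untreated replicate 1 only, 87 bases upstream of the start. BBC3 had an ETS1 peak in TWEAK replicate 2 only (fold enrichment 4.05, rank 2507 of 3145), 4865 bases into the gene. Neither PMAIP1 nor BAX, BAK1, BCL2L1, BCL2A1 or BID had an ETS1 peak in any library.

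**Figure D3:**
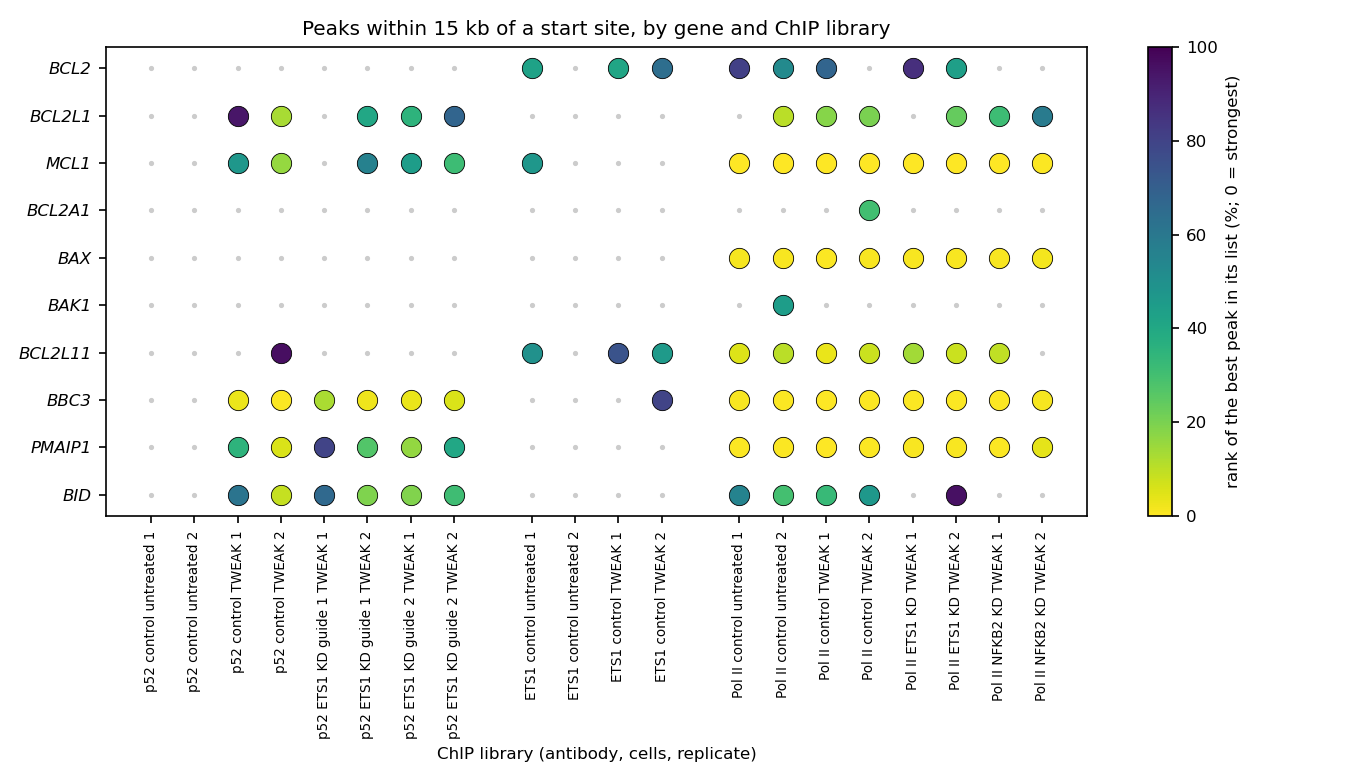
Presence of a peak within 15 kb of a start site for each gene (y axis) in each of the 20 ChIP libraries (x axis), coloured by the rank of its best peak in that library's list in percent, small grey dots marking no peak. p52 columns are empty before TWEAK and filled at BBC3, PMAIP1 and BID in all 6 TWEAK libraries.

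RNA Pol II marked the start (a peak with its summit within 1 kb of the MANE start) of MCL1 and PMAIP1 in all 8 libraries and of BCL2L11 in 7 of 8. A peak that covered the start with its summit farther away was not counted as a start peak. Start peaks were counted for the members only, so no share of all tested genes can be set beside these counts. At MCL1 the fold enrichment was 77.5 and 109 in untreated, 168 and 98.9 in TWEAK control, 84.0 and 110 in ETS1 KD and 47.3 to 105 in NFKB2 KD libraries, within the top 0.6% of each list. At PMAIP1 it was 50.6 and 51.9 in untreated, 141 and 60.5 in TWEAK control, 48.0 and 39.0 in ETS1 KD and 60.6 and 16.2 in NFKB2 KD libraries, and the ETS1 KD libraries lay below both TWEAK control libraries. NFKB2 KD replicate 1 was close to the lower TWEAK control library, and replicate 2, with the shortest list, was the lowest of the 8. These values come from lists called one by one, whose depth is unknown, and differences in them were not tested. At BBC3 a start peak was present in 6 of 8 libraries, namely both untreated (6.01 and 9.06), both TWEAK control (15.7 and 8.96) and both NFKB2 KD libraries (7.74 and 3.93). Neither ETS1 KD library had one. The ETS1 KD lists held 24710 and 29785 peaks. That of NFKB2 KD replicate 2 held 11175, with the BBC3 start peak at rank 10372. BID, with a start peak in both TWEAK control libraries, also had none in either ETS1 KD library, nor in either NFKB2 KD library. How often genes at large lack a start peak in both ETS1 KD lists was not measured. Whether the loss at BBC3 is unusual therefore cannot be told. Whether list length or depth bears on the missing start peak of BBC3 was not tested. Both ETS1 KD libraries kept the strongest RNA Pol II peak of the gene, in an intron 4884 and 4876 bases downstream of the start, with a fold enrichment of 49.96 and 47.3. This intron peak was in all 8 libraries, at 40.2 and 69.1 in untreated, 176 and 78.1 in TWEAK control and 63.6 and 29.7 in NFKB2 KD libraries, within the top 1.23% of each list. Its summits, 4854 to 4884 bases downstream of the start, lay on both sides of the single ETS1 summit at BBC3.

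**Figure D4:**
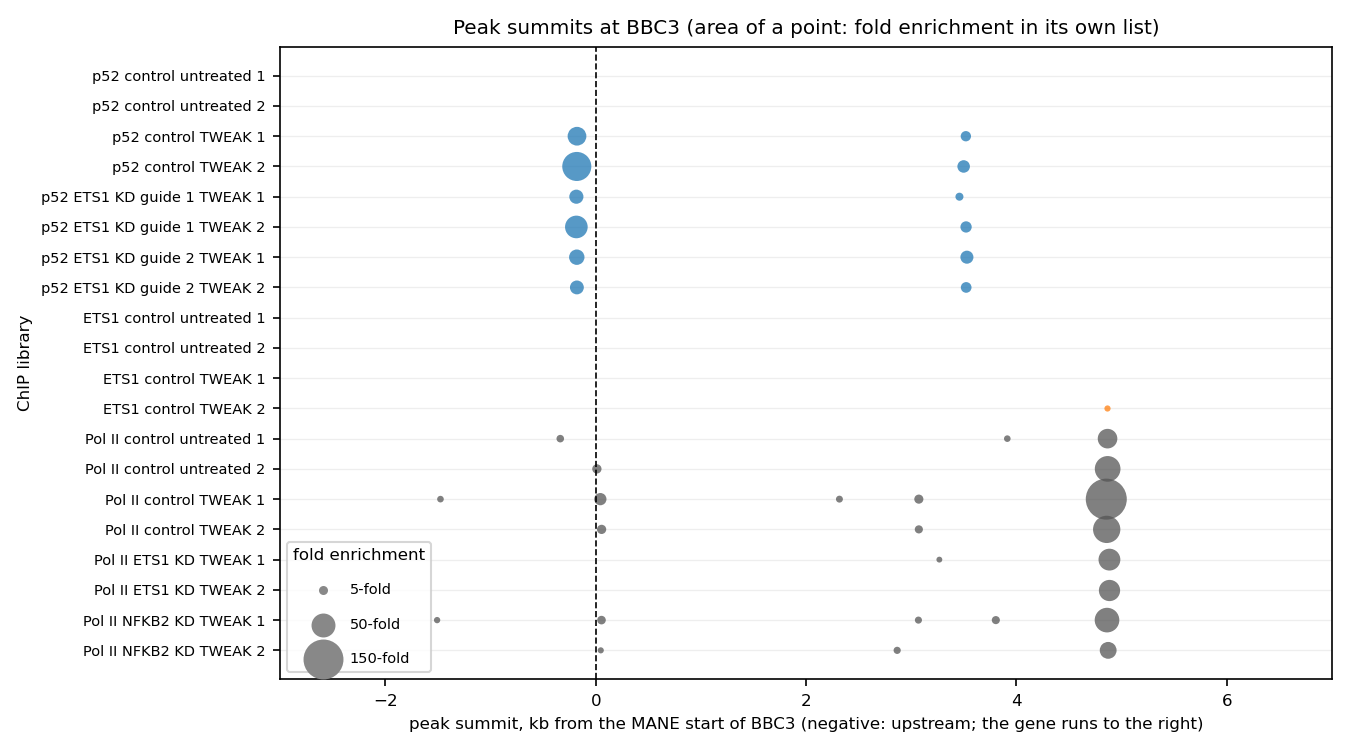
Peak summits at BBC3 by ChIP library (y axis) against the distance in kb from its MANE start (x axis, the gene running to the right), with point area for fold enrichment and blue for p52, orange for ETS1 and grey for RNA Pol II. The p52 summits 178 to 184 bases upstream appear in all 6 TWEAK libraries, and the RNA Pol II summit within 1 kb of the start is missing from the 2 ETS1 KD libraries.

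The other genes had a start peak in at most 3 libraries. BID had a start peak in 3 of 8 libraries, 1 untreated and both TWEAK control, BCL2L1 in 3, BCL2 in both untreated libraries only, BAX and BAK1 in 1, and BCL2A1 in none. Within 15 kb, RNA Pol II peaks were present in both replicates at 7 of 10 genes in untreated control (beside 61.5% of the tested genes), 7 in TWEAK control (70.7%), 6 with ETS1 knocked down (64.0%) and 5 with NFKB2 knocked down (55.2%). The strong peak within 15 kb of BAX, present in all 8 libraries, lay within 103 bases of the start of FTL, the neighbouring ferritin gene, and so belongs to BAX only by distance.

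The rest of the apoptosis pathway was read from 4 lists. They were chosen with earlier results of these data known, so their counts and medians beside those of all genes are descriptions. Among 13 other BCL2 family genes, of which 9 were tested, 1 fell with TWEAK (BMF) and none rose, beside 3.08% of all tested genes called in either direction. With ETS1 KD 2 fell (HRK and BMF), beside 1.39%. EdgeR called none with NFKB2 KD (beside 0.0296%), where 0 of the 9 had an unadjusted p under 0.05, against 3.91% of all genes. HRK, a BH3-only gene that binds BCL2 and BCL-XL, was at 20.3, 28.1 and 33.3 CPM in TWEAK control and 10.2, 8.55 and 10.3 CPM in ETS1 KD libraries, a log2 fold change of -1.49 (SE 0.21, adjusted p = 0.00345). BMF, a BH3-only gene whose product is tied to the cytoskeleton, was at 4.36 ± 0.88 CPM in untreated control, 2.27 ± 0.317 in TWEAK control and 1.09 ± 0.134 in ETS1 KD cells (SD, n = 3), changes of -0.95 (adjusted p = 0.029) and -1.05 (adjusted p = 0.04). The median log2 fold change of the list was -0.07 with TWEAK and 0.01 with ETS1 KD. No p52 peak in both TWEAK control replicates lay within 15 kb of HRK or BMF, although BCL2L2 and BCL2L12 had one.

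Of 17 genes of the mitochondrial and caspase arm, 2 rose with TWEAK, BIRC3 and BIRC2, which encode the cIAP ubiquitin ligases, beside 3.08% of all genes called. EdgeR called none in either KD against control (unadjusted p under 0.05 for 1 gene with ETS1 KD and 2 with NFKB2 KD, beside 12% and 3.91% of all genes). BIRC3 was at 3.34 CPM in untreated and 174 CPM in TWEAK control cells on average, a log2 fold change of 5.71 (SE 0.42, adjusted p = 2.92e-05). No cytochrome c, APAF1, caspase or VDAC gene of the list was called in any of these 3 comparisons. Of 13 tested genes of the death receptor arm, 2 rose with TWEAK, beside the same 3.08%: TNFSF10, which encodes TRAIL, at a low level (0.987 against 0.301 CPM, log2 fold change 1.70, adjusted p = 0.00707), and CFLAR, the gene of the caspase 8 inhibitor cFLIP (87.2 against 55.1 CPM, 0.66, adjusted p = 0.0115). EdgeR called none in either KD against control (unadjusted p under 0.05 for 2 genes in each, beside 12% and 3.91%).

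Of 13 tested regulators of the members, edgeR called none with TWEAK or NFKB2 KD (unadjusted p under 0.05 for 4 and 3 genes, beside 14.7% and 3.91% of all genes), and 3 fell with ETS1 KD, beside 1.39% called. DDIT3, the CHOP transcription factor of the stress response that acts on BBC3 and BCL2L11 in other cells, was at 149, 119 and 117 CPM in TWEAK control and 40.1, 39.8 and 29.3 CPM in ETS1 KD libraries (log2 fold change -1.82, SE 0.18, adjusted p = 0.000235). TRIB3, a target of DDIT3 and ATF4, fell by 1.95 on the log2 scale (adjusted p = 0.000299), and ATF4, which acts on PMAIP1 in other cells, fell by 0.58 (adjusted p = 0.0101). The list's median log2 fold change was -0.21 with ETS1 KD beside 0.01 over all genes, a description only, since earlier results of these data were known when the list was chosen. CDKN1A, a cell cycle inhibitor gene, was at 219 CPM in TWEAK control and 177 CPM in ETS1 KD cells on average, a log2 fold change of -0.31 (adjusted p = 0.211).

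**Figure D5:**
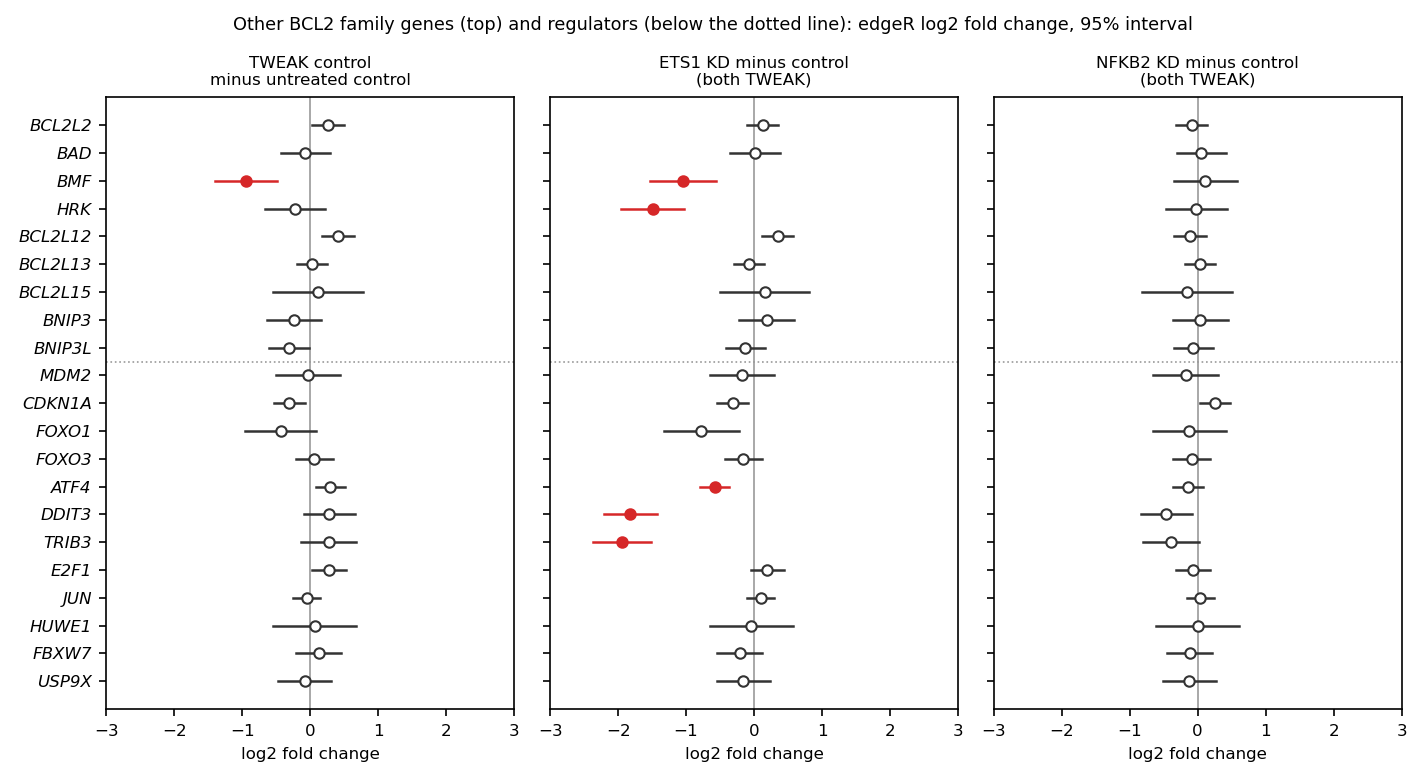
Log2 fold change (x axis) with 95% interval of the tested other BCL2 family genes (above the dotted line) and 12 of the regulators (below it) in 3 comparisons, filled red where edgeR's adjusted p was below 0.05. BMF falls at -0.95 with TWEAK, HRK (-1.49), BMF (-1.05), ATF4 (-0.58), DDIT3 (-1.82) and TRIB3 (-1.95) fall with ETS1 KD, and no point is filled with NFKB2 KD.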

How the data were processed

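RNA-seq (12 libraries) and ChIP-seq peak lists (20 libraries) were analysed, and 3 input libraries were not used here. Per the labels and the study's methods, the authors trimmed reads with Trimmomatic, aligned RNA reads to hg38 with STAR, and deposited raw counts per gene from featureCounts. For ChIP-seq the authors aligned reads with Bowtie2, called peaks in each library with MACS2 against input and removed blacklisted regions. Versions are not given in the sources used here. The deposited peak lists give a fold enrichment (a ratio over input), a −log10 q-value and a display score for each peak, with no read depth.

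The members and the gene lists were chosen with earlier results of these data known. Counts were tested with edgeR 4.0.16 in R 4.3.3 (TMM, filterByExpr, quasi-likelihood F test, 1 fit of all 12 libraries, Benjamini-Hochberg adjustment over 16879 genes, threshold 0.05). The fit was also tested on simulated counts, which carried no GC differences between libraries. Depth ran from 28384201 to 40192606 counted reads per library, and no 2 replicates agreed within sampling noise. No column of the count table was left unused. Exon length (union), start sites and GC content (longest transcript) came from GENCODE 44. Peaks were assigned when any part of the peak lay within 15 kb of a start site, whereas RNA Pol II start peaks were counted by their summit. Motifs were searched in 300 bases around summits with pysam 0.24.0. Sequence is from hg38. The genes named were all members, ETS1 and NFKB2, at most 3 called genes a direction, list and comparison, and the 5 genes most correlated with the member of widest range. Alternatives were RLE size factors, library totals, DESeq2 1.42.0, no filter, only the 2 groups, the replicate block, a GC and length correction, each library left out, and for peaks a stricter q, a narrower window, either replicate and lists of equal number. Some listed, marker and correlated genes are not reported here. ETS1 KD with TWEAK against untreated control was added after the values were seen.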

Additional observations from a re-analysis of the deposited data

Results flagged for a closer look

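The ETS1 KD and NFKB2 KD effects share the TWEAK control libraries, so they were compared directly, ETS1 KD minus NFKB2 KD, in the edgeR fit. That comparison called 1.94% of all tested genes. Of the members, BBC3 differed between the KDs (log2 difference -0.77, adjusted p = 0.0382, lower in 3 of 3 ETS1 KD libraries), a call lost under several alternatives given above. How the calls of the other genes below held under the alternatives is not given here. Of the other BCL2 family genes, BMF (-1.16, adjusted p = 0.0207) and HRK (-1.47, adjusted p = 0.00396) were lower in ETS1 KD cells and BCL2L12 (0.46, adjusted p = 0.046) was higher. BIRC3 was higher in ETS1 KD cells by 1.86 (adjusted p = 0.0154), with group means of 180 CPM in ETS1 KD and 49.4 CPM in NFKB2 KD cells. Of the regulators, CDKN1A (-0.57, adjusted p = 0.015), ATF4 (-0.43, adjusted p = 0.0452), DDIT3 (-1.36, adjusted p = 0.00234) and TRIB3 (-1.55, adjusted p = 0.00233) were lower in ETS1 KD cells.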

How the results depend on the processing

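Of 699 log2 values of members under alternatives, 609 kept their direction and side of the threshold, 33 gained and 11 lost the call, and 46 changed sign, all of results whose main size was at most 0.09. Members called with TWEAK numbered 1 with DESeq2 or the GC and length correction and 2 with that correction and the replicate block. With ETS1 KD they numbered 1 with library totals, with only the 2 groups or with the replicate block, 2 with DESeq2, no filter, the GC and length correction or the study's rule of unadjusted p and fold, and 3 with the correction and the replicate block. With NFKB2 KD the study's rule called 1. Between the KDs the count was 0 with only the 2 groups or with the replicate block (BBC3 adjusted p 0.0991 and 0.054), 2 with DESeq2 or the study's rule, 3 with the correction with or without the block, and 0 to 1 with each library left out. Most of these settings also called more genes at large, and the counts over all genes are given at the end of this section. Of 18 same-number correlations between libraries of different groups, 9 exceeded 0.1, and 5 of 12 libraries correlated best with their own number. The highest correlation was 0.492 among same-number pairs and 0.488 among the others. These values do not settle whether libraries of the same number were paired. The cause of these changes was not tested.

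Members with p52 peaks numbered 1 in each of the TWEAK control, guide 1 and guide 2 lists when lists were held to the strongest 452 peaks, beside 1.64%, 1.6% and 1.8% of the tested genes. Guide 1 gave 5 with a peak in either replicate, and 3 to 5 with a replicate left out, where the single lists covered 5.11% and 13.9% of the tested genes. ETS1 gave 3 in untreated cells with either replicate. With 1 replicate left out it gave 0 to 3, where replicates 1 and 2 alone covered 20.4% and 9.91% of the tested genes. In TWEAK control it gave 0 at a −log10 q of at least 5 and 1 with lists of equal number. RNA Pol II in NFKB2 KD cells gave 3 within 5 kb. The share of all tested genes was not taken for the other settings named here, so those counts cannot be read against it.

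Changed signs with TWEAK were BCL2L1 at -0.01 with library totals and with no filter. With NFKB2 KD they were BCL2 at 0.01 with the same settings, BCL2L1 at 0.00 with both GC corrections, BCL2L11 at 0.00 with RLE, DESeq2 and both GC corrections and 0.03 with library totals and no filter, and BID at 0.00 with RLE and DESeq2, 0.02 with library totals and 0.03 with no filter. Between the KDs BAK1 was at -0.01 with RLE and DESeq2, -0.07 with library totals, -0.02 with no filter and -0.03 with only the 2 groups. With a library left out, values ran with TWEAK from -0.04 to 0.20 for BCL2, 0.00 to 0.06 for BCL2L1 and -0.08 to 0.22 for BBC3. With NFKB2 KD they ran from -0.16 to 0.15 for BCL2, -0.05 to 0.12 for BCL2L1, -0.08 to 0.03 for MCL1, -0.13 to 0.14 for BCL2L11, 0.00 to 0.18 for BBC3 and -0.24 to 0.16 for BID. Between the KDs they ran from -0.11 to 0.07 for BAK1 and -0.08 to 0.32 for BID.

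Over all genes, edgeR called 261 higher and 259 lower with TWEAK and DESeq2 431 and 509. With ETS1 KD the counts were 43 and 191 against 158 and 376 with DESeq2, with NFKB2 KD 1 and 4 against 10 and 26, and between the KDs 90 and 237 against 285 and 532, or 26 and 78 with only the 2 groups. The GC and length correction gave 495 and 553, 151 and 363, 3 and 5, and 293 and 550 in the same order. With the replicate block as well it gave 701 and 797, 253 and 463, 5 and 14, and 560 and 760. The study's rule gave 557 and 640, 194 and 763, 212 and 167, and 299 and 945. With ETS1 KD, no filter gave 111 and 358 of 35060 genes, library totals 38 and 226, only the 2 groups 49 and 215, and the replicate block 48 and 204. Between the KDs the replicate block gave 128 and 233. Apart from no filter and only the 2 groups, 16879 genes were tested.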

Other observations

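Against untreated control cells, TWEAK-treated ETS1 KD cells had further differences in the apoptosis lists, in a comparison added after the values were seen, where treatment and genotype cannot be told apart and edgeR called 13.8% of all genes. BMF fell by 1.99 and HRK fell by 1.72 on the log2 scale, while BCL2L12 rose by 0.75. BIRC3 was at 180 CPM in these cells against 3.34 CPM in untreated cells, and BIRC2 at 94.8 against 30.3 CPM. Of the death receptor arm, CFLAR rose by 0.77 and FAS by 0.66, and TNFRSF10C fell by 1.14. Of the regulators, TRIB3 (-1.68), DDIT3 (-1.54) and FOXO1 (-1.22) were lower and E2F1 (0.47) was higher.

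p52 peaks in both TWEAK control replicates lay within 15 kb of 3 of 13 tested genes of the death receptor arm (FADD, TRADD and CASP8) and 1 of 17 of the mitochondrial and caspase arm (CASP9), beside 11.7% of all tested genes.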
